A study of Mus musculus with 2 samples.

Results

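The erythropoietin receptor axis was described as 10 genes chosen by symbol: the hormone gene Epo, its receptor Epor, the receptor-bound kinase Jak2, the transcription factors Stat5a and Stat5b, the response genes Cish, Socs2, Socs3 and Pim1, and the secreted hormone gene Erfe. All 10 were found among the 43346 annotated genes of the tables, and their 41 annotated transcripts were read from the transcript tables. Total RNA longer than 200 nt was measured in healthy liver of B6NCrl mouse embryos at day 13.5, with male and female embryos pooled. The study has 1 group with 2 biological replicates, which are separate tissue samples under 1 donor entry, each library made from 10 ng of RNA with spike-in RNAs added. No other tissue, age, genotype or treatment was part of it, so genes are compared with each other and the replicates with each other, and no p-value was computed. The SD over n = 2 measures the spread between these samples only.

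Erythropoietin is the hormone that keeps red cell progenitors alive and dividing. It binds a dimer of its receptor, which has no kinase activity of its own and relies on the Janus kinase JAK2 bound to its tail. JAK2 phosphorylates the receptor and STAT5, which enters the nucleus and induces genes such as Cish, Socs2, Socs3, Pim1 and Erfe. CISH and the SOCS proteins feed back on cytokine receptors, and erythroferrone, the product of Erfe, acts on hepatocytes to lower hepcidin. In the fetus the liver is both the site of red cell formation and a source of the hormone.

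Promoter sequence is shown for the gene with the highest level of the axis and for the response genes whose promoters held the STAT5 consensus. RefSeq promoter windows on GRCm38, from 250 bases before to 50 after a gene's start, were found for 9 of the 10 genes, in 12 windows. There was no window for Socs2. Each was searched on both strands for TTCNNNGAA (the palindromic core to which STAT5 binds), GATAA (a core of GATA factor sites), CACCC (a core of KLF1 sites) and ACGTG (the core of hypoxia response elements). The motifs were counted separately, and matches of different motifs could overlap. The stretch of the Epor promoter below covers bases -200 to -1 on the minus strand of chr9:21963577-21963776, with matches to CACCC and to the reverse complement of GATAA in capitals.
Epor promoter: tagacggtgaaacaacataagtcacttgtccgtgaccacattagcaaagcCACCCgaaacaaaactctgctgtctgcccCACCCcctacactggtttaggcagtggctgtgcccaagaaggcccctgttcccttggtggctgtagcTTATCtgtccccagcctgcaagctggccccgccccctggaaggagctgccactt
The GATAA match of Epor spanned bases -54 to -50, and the CACCC matches began at -150 and -121. TTCNNNGAA is shown for Cish (plus strand, chr9:107296649-107296678, bases -10 to 20) and Socs3 (minus strand, chr11:117969501-117969530, bases -164 to -135), with the matches in capitals.
Cish site: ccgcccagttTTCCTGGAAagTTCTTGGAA
Socs3 site: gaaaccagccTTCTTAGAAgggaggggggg

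The Cish stretch held 2 matches side by side, at bases 1 to 9 and 12 to 20 from the RefSeq start. Of the 12 windows, 2 held TTCNNNGAA, those of Cish and Socs3, against 8.30% of all 32851 windows. GATAA was found in 3 of the 12, for Epor, Epo and Cish (25.4% of all windows), and ACGTG in 3, for Cish, Erfe and the second Pim1 window (19.6% of all windows). CACCC was found in 9 of the 12, for every gene with a window but Jak2, and in 57.5% of all windows. These matches describe the letters of the windows, and binding was not measured. Positions are counted from RefSeq starts. The Socs3 window (117969317 to 117969616, minus strand) lies wholly upstream of 117969186, where the Socs3 transcript with most counts (2552 nt) starts. The Epor window (21963527 to 21963826, minus strand) lies wholly upstream of 21963506, where the counted Epor transcript starts. For both genes, the sequence between the window and that transcript start was not searched.

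Among the 10 genes, the receptor was the most abundant and the hormone the least. Levels are given in TPM, a share of all transcripts in a library that is corrected for transcript length and therefore allows genes to be ordered. Of the 10, 9 reached 1 TPM in both libraries, a level reached by 28.1% of all annotated genes and by 52.1% of the 21474 protein-coding genes. The median of the axis was 9.75 and 10.8 TPM in replicates 1 and 2, beside 11.7 and 13.1 TPM for the 11194 protein-coding genes that reached 1 TPM in both. Epor, Pim1 and Stat5b were above that median in both libraries, and the other 7 were below it in both. In bulk tissue, fewer cells of a type and less RNA per cell cannot be told apart.

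**Figure D1:**
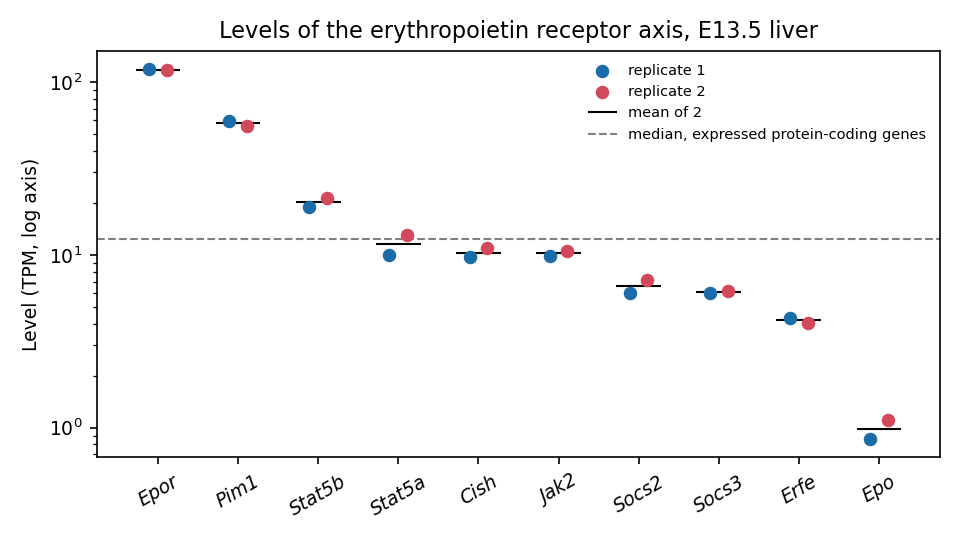
Level of each gene of the axis in TPM on a log axis, with 1 point per replicate, a bar at the mean of 2, and a dashed line at the median of the protein-coding genes at or above 1 TPM in both libraries (12.4 TPM). Epor lies near 118 TPM, Pim1 near 58 TPM, and Epo near 1 TPM, with the points of each gene close together.

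Epo (ENSMUSG00000029711.9, chromosome 5, 137483020 to 137533242, minus strand of GRCm38), the hormone gene, stood at 0.86 and 1.1 TPM in replicates 1 and 2. These levels rest on 20 and 23 expected counts. The authors' posterior interval ran from 0.577 to 1.34 TPM in replicate 1 and from 0.754 to 1.67 TPM in replicate 2, so a level above or below 1 TPM could not be settled at this depth. A count of 0 would have allowed up to 0.129 and 0.143 TPM for a transcript of its 715 nt. All counts of Epo were assigned to Epo-201, 1 of 3 annotated transcripts. The posterior mean gave that transcript only 56.9% and 68.0% of the gene.

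The 13 genes listed for the control of Epo all reached 1 TPM in each library, and their median was 7.30 ± 0.502 TPM. The highest were Egln2, an oxygen-sensing hydroxylase that marks HIF proteins for destruction, at 25.2 ± 0.566 TPM, Arnt, the common partner of the HIF alpha subunits, at 16.3 ± 2.71 TPM, and Hif1a at 15.9 ± 3.03 TPM. The lowest was Epas1, which encodes HIF-2 alpha, the main activator of Epo, at 1.2 ± 0.0778 TPM. Hnf4a, the hepatic factor that acts on the Epo enhancer, was at 11.03 and 13.7 TPM and was chosen after its values were seen.

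Epor (ENSMUSG00000006235.5, chromosome 9, 21958897 to 21963506, minus strand) stood at 118.7 and 117.8 TPM in replicates 1 and 2. The replicates differed by less than 1 TPM, and the mean of 118 ± 0.658 TPM exceeded the level of 91.8% of the protein-coding genes expressed in both. The counts behind it were 7778 and 6930. Receptor over hormone, the ratio was 138-fold in replicate 1 and 107-fold in replicate 2 (log2 6.93 ± 0.26). Only 1 transcript of Epor was annotated in the release used for counting.

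Epor was the highest of 14 receptors compared, which signal through Janus kinases or act in the same progenitors. Of these, 11 reached 1 TPM in both libraries, and Csf2rb2, Prlr and Il5ra were below it in both. Epor held 64.7% and 59.6% of their summed TPM. The next were the growth hormone receptor Ghr at 13.6 ± 2.57 TPM and the LIF receptor Lifr at 13.6 ± 1.76 TPM. The stem cell factor receptor Kit stood at 10.7 and 14.3 TPM, so Epor over Kit was 11.1-fold and 8.22-fold. Csf2rb, the beta chain shared by several interleukin receptors, was at 3.02 ± 0.17 TPM, and its near copy Csf2rb2 at 0.625 ± 0.177 TPM, with reads divided between them by the authors' model. Il5ra was the lowest, with 4 counts in replicate 1 and 0 in replicate 2. Csf2rb, Csf2rb2 and Prlr were named after their values were seen.

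**Figure D2:**
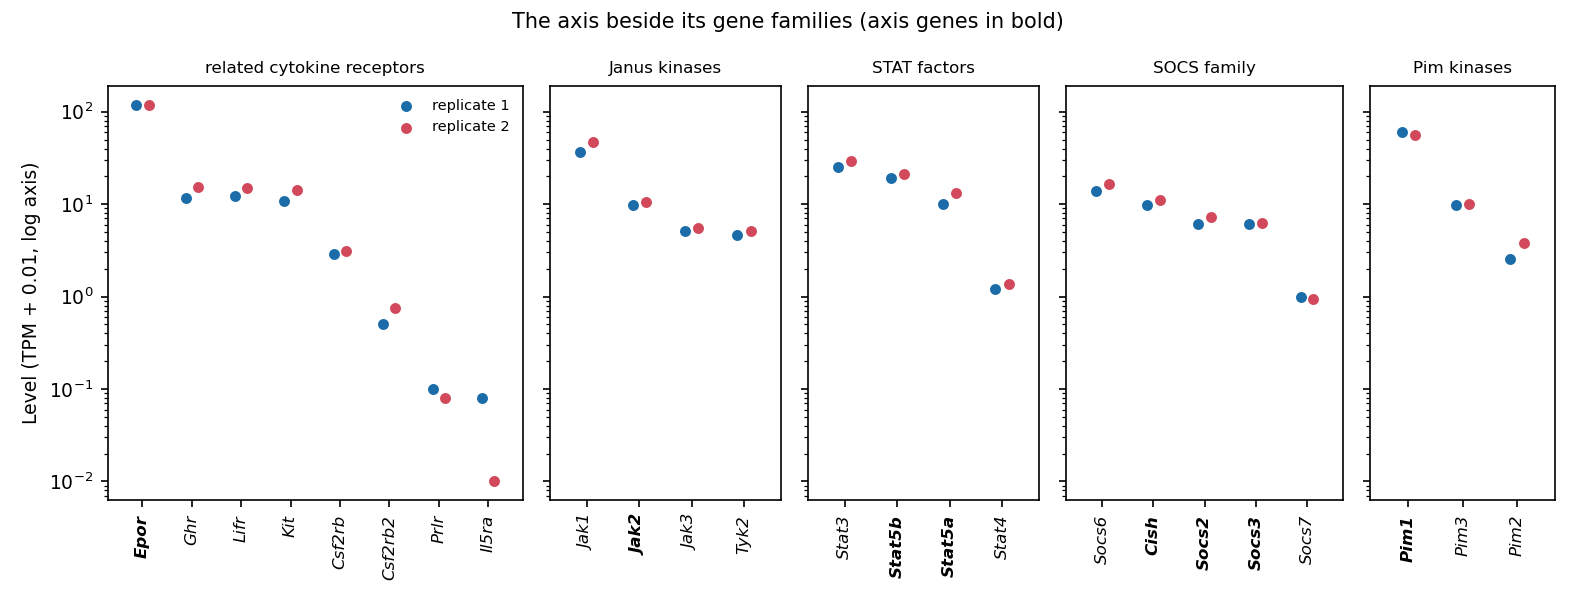
Levels of the axis genes (bold) and of the relatives named in the text, in TPM plus 0.01 on a log axis, with 1 point per replicate and genes ordered by mean within each panel. Epor and Pim1 lead their panels, whereas Jak2 lies below Jak1, Stat5b below Stat3, and Cish below Socs6.

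Jak2 (ENSMUSG00000024789.8, chromosome 19, 29251828 to 29313080, plus strand), the kinase that carries the signal of the receptor, stood at 9.83 and 10.6 TPM. Its mean of 10.2 ± 0.537 TPM was 12.1-fold below Epor in replicate 1 and 11.1-fold below it in replicate 2. Within its family Jak2 was the second of 4 and held 17.4% and 15.6% of the TPM. Jak1, which serves interferon and gp130 receptors, was at 36.9 and 46.7 TPM, and the log2 ratio of Jak2 over Jak1 was -2.02 ± 0.16. Jak3 and Tyk2 were lower, at 5.28 ± 0.276 and 4.89 ± 0.304 TPM, with Jak2 over Tyk2 at 2.10-fold and 2.08-fold. By expected counts, nearly all reads of the gene were assigned to its transcript of 5030 nt, with 1834.98 in replicate 1 and 1685.05 in replicate 2. The other annotated transcript, of 4947 nt, received 0.02 and 89.95. The posterior SD of each was 70.9 counts in replicate 1 and 155 in replicate 2, so these 2 values were not told apart. The posterior mean gave the transcript of 4947 nt 7.85% and 12.9% of the gene.

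Stat5b (ENSMUSG00000020919.7, chromosome 11, 100780731 to 100850724, minus strand) stood at 19.0 and 21.4 TPM. Stat5a (ENSMUSG00000004043.10, chromosome 11, 100859351 to 100885169, plus strand), its neighbour in the opposite direction, stood at 9.97 and 13.1 TPM. Stat5b was higher in both libraries, by 1.904-fold and 1.63-fold, and the ranges of the genes over the replicates did not overlap. Together they held 33.2% and 33.8% of the TPM of the 7 STAT genes. Stat3 was the highest STAT gene at 27.3 ± 2.58 TPM, with Stat5b at 0.746-fold and 0.734-fold of it. Stat4 was the lowest at 1.29 ± 0.12 TPM.

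Stat5a and Stat5b share long stretches of coding sequence, which bears on how their reads were told apart. The longest identical run between the leading transcripts of the genes was 324 bases long and lay in coding exons 7 to 9 of Stat5a (chromosome 11, 100874023 to 100874983) and 6 to 8 of Stat5b (100797741 to 100798701). In both genes it spanned 961 bp of the genome, introns included. The sequences below show its beginning, 5′ to 3′ on the sense strand, as 30 flanking bases in lower case and the first 60 bases of the run in capitals. They were taken from the transcripts of GENCODE release M21.
Stat5a run: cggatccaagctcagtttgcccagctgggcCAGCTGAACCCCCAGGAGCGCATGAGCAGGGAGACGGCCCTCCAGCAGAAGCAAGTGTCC
Stat5b run: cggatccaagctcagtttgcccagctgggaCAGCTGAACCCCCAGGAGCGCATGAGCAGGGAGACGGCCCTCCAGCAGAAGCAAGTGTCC

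Of the 30 flanking bases, 1 differed. Over the whole transcripts, 16.5% of the 50-base windows of the Stat5a transcript occurred in that of Stat5b, and 12.1% the other way round. The windows were not matched to the length of the reads, so these are not the shares of reads that fit both genes. Reads that did fit both were divided by the authors' model. Its posterior SD was 9.34 counts for each gene in replicate 1 and 9.5 in replicate 2. This was small beside 1276 and 1291 counts of Stat5a and 3192 and 3373 of Stat5b.

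The level of Stat5a differed more between the replicates in TPM than in counts. The log2 ratio of replicate 2 over replicate 1 was 0.39 in TPM, beside 0.02 in counts after TMM scaling (95% counting interval -0.10 to 0.13). Part of this gap was common to the library, since Epor, with 1 annotated transcript, had -0.01 in TPM and -0.17 in counts. The counts assigned to the transcripts of Stat5a also differed between the libraries. Stat5a-202 (3738 nt), which took most reads, had 956 counts in replicate 1 and 791 in replicate 2, whereas Stat5a-203 had 295 and 419. The posterior SDs were 115 and 127 counts for Stat5a-202 and 106 and 128 for Stat5a-203. A shift of counts between these transcripts was therefore not resolved. The short Stat5a-206 (617 nt) had 14.6 and 51.8 counts, with posterior SDs of 4.18 and 7.18. In TPM, Stat5a-202 had 6.93 and 6.39, Stat5a-203 had 2.22 and 3.52 and Stat5a-206 had 0.74 and 2.94, so that Stat5a-206 held 2.2 of the net difference of 3.12 TPM (70.5%). It took 7.43% and 22.5% of the TPM of Stat5a in the replicates, but 1.15% and 4.01% of the counts.

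Cish (ENSMUSG00000032578.7, chromosome 9, 107296026 to 107302784, plus strand), which encodes an SH2 protein of the SOCS family that binds activated cytokine receptors, stood at 9.67 and 10.96 TPM. Socs2 (ENSMUSG00000020027.14, chromosome 10, 95385362 to 95417180, minus strand), best known as a brake on growth hormone signalling, stood at 6.04 and 7.17 TPM. Socs3 (ENSMUSG00000053113.3, chromosome 11, 117966079 to 117970047, minus strand), which inhibits JAK2 directly, stood at 6.03 and 6.17 TPM. Cish was higher than Socs2 (1.60-fold and 1.53-fold) and Socs3 (1.60-fold and 1.78-fold) in both libraries, whereas Socs2 and Socs3 overlapped. The 3 held 51.0% and 50.4% of the deposited TPM of the 8 SOCS family genes. The lengths of the leading transcripts, used below, lower the mean level of all 3, and the share was not recomputed with them. Socs6 was the highest of the family at 15.1 ± 1.96 TPM, and Socs7 the lowest at 0.955 ± 0.0354 TPM.

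The order of these response genes rested on short annotated transcripts. For Cish, Cish-203 (411 nt) and Cish-205 (371 nt) together held 54.9% and 53.7% of the TPM in the replicates but 11.1% and 10.7% of the counts. Cish-204 (2742 nt) led in both libraries with 41.2% ± 0.868 of the TPM and 74.9% of the counts. For Socs2, transcripts under 1000 nt held 41.7% of the TPM and 21.2% of the counts, most of them in a transcript of 948 nt. For Socs3, the transcript of 2552 nt held 97.0% ± 2.02 of the TPM. When the counts of each gene were divided by the length of its leading transcript alone, an alternative chosen after the data were seen, Cish stood at 5.69 ± 0.577, Socs2 at 4.91 ± 0.438 and Socs3 at 5.95 ± 0.203 on the TPM scale. Cish then overlapped Socs3, with 5.28 against 5.80 in replicate 1 and 6.09 for both in replicate 2. The log2 ratio of Cish over Socs3 went from 0.76 ± 0.10 to a mean of -0.07, and that of Socs2 over Socs3 from 0.11 ± 0.15 to -0.28. The order of the 3 thus depended on the length used.

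**Figure D3:**
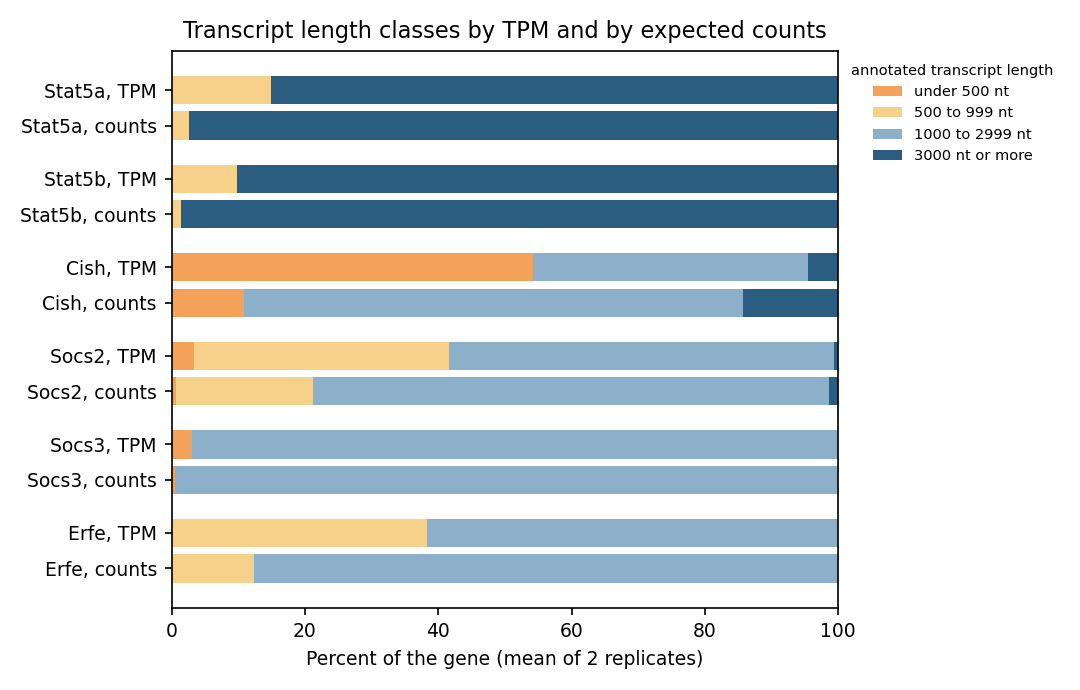
Share of each gene in annotated transcripts of 4 length classes, as percent of its TPM (upper bar) and of its expected counts (lower bar), mean of 2 replicates. The classes under 1000 nt take 54.3% of Cish, 41.7% of Socs2 and 38.4% of Erfe by TPM, but 10.9%, 21.2% and 12.4% by counts.

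The transcripts of Cish also differ in what they encode. Cish-201, with the longest annotated coding sequence (771 bases), starts at 107296026 and was assigned 0 counts in both libraries. Its posterior SD was 11.8 and 18.7 counts in replicates 1 and 2. The posterior mean gave it 1.15% and 2.19% of the gene, so its absence was not shown. Cish-204 starts at 107296710, just downstream of the TTCNNNGAA pair shown above, and lacks the internal coding exon of 221 bases at 107299924 to 107300144, which leaves 186 annotated coding bases. That exon is present whole in Cish-201, Cish-202 and Cish-205 and for 157 bases in Cish-203. The tables hold no counts per exon, so how many reads fell on it was not tested.

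Pim1 (ENSMUSG00000024014.7, chromosome 17, 29490753 to 29496112, plus strand), a serine-threonine kinase that promotes survival, stood at 59.6 and 55.6 TPM in replicates 1 and 2. It was the second gene of the axis, above the level of 83.4% of expressed protein-coding genes, on 5734 and 4799 counts. It held 82.9% and 80.2% of the TPM of the 3 Pim kinases. Pim3 was at 9.86 ± 0.113 TPM and Pim2 at 2.51 and 3.81 TPM, so Pim1 exceeded Pim3 by 6.10-fold and 5.59-fold and Pim2 by 23.8-fold and 14.6-fold. Pim1 had 1 transcript in the release used for counting.

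Among other genes known as STAT5 targets, 11 of the 13 listed reached 1 TPM in both libraries and 2, Osm and Bcl6, were below it in both. Their median was 21.6 ± 1.07 TPM. Cyclin D3 (Ccnd3) stood at 353 ± 9.45 TPM, the transferrin receptor Tfrc at 263 ± 36.7 TPM, and Bcl2l1, which encodes the survival protein BCL-XL, at 140.1 ± 9.49 TPM. Bcl6, a gene that STAT5 represses in lymphocytes, was the lowest at 0.2 ± 0.0141 TPM. STAT5 activity was not measured, and other factors also act on these genes.

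Erfe (ENSMUSG00000047443.10, chromosome 1, 91366430 to 91374217, plus strand) stood at 4.31 and 4.05 TPM in replicates 1 and 2, on 319 and 257 counts. It was the ninth gene of the axis, and its range did not overlap those of Socs3 above it or Epo below it. Erfe-201 (2815 nt) held 61.6% ± 2.86 of the TPM and 87.6% of the counts. Erfe-202, of 715 nt (91370694 to 91374092), which starts inside the gene, held 38.4% of the TPM and 12.4% of the counts. Divided by the length of Erfe-201 alone, the counts gave 2.94 ± 0.222 on the TPM scale.

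Hamp, which encodes hepcidin, the hormone that erythroferrone lowers, stood at 3.42 and 1.81 TPM on 38 and 18 counts, and its copy Hamp2 had 0 counts in both. Erfe over Hamp was 1.26-fold and 2.24-fold (log2 0.75 ± 0.59) in deposited TPM. With the length of Erfe-201 alone, Erfe stood at 3.10 and 2.79, below the deposited level of Hamp in replicate 1 and above it in replicate 2. Which of the genes was higher thus depended on the length used in replicate 1, whereas Erfe was higher in replicate 2 with either length. Hamp itself had a log2 ratio between replicates of -1.06 (95% counting interval -1.98 to -0.23). Of the 20 genes in the hepcidin list, 15 reached 1 TPM in both libraries and 5 were below it in both. Tfr2, which also associates with the erythropoietin receptor, was the highest at 30.2 ± 1.61 TPM. The BMP modulator Twsg1 stood at 15.3 ± 2.60 TPM and the hemochromatosis gene Hfe at 8.56 ± 0.339 TPM. Bmp6, the ligand that drives hepcidin and is bound by erythroferrone, was at 0.17 and 0.22 TPM, on 15 and 17 counts, and was chosen after its values were seen.

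Genes that pass the signal on from the receptor, and genes that end it, were both present. Of 19 adaptors and effectors, 18 reached 1 TPM in both libraries, and their median was 13.99 ± 2.33 TPM. The adaptors Grb2 and Shc1, which link receptors to RAS, stood at 54.1 ± 3.73 and 42.0 ± 5.61 TPM. Sos1, the exchange factor recruited by Grb2, was the lowest at 0.885 ± 0.0212 TPM. Of 12 attenuators, 11 reached 1 TPM in both, and their median was 13.2 ± 0.651 TPM. The phosphatases Ptpn2, Ptpn1 and Ptpn6 led them at 38.8 ± 3.14, 35.6 ± 5.11 and 26.1 ± 0.382 TPM. Cblb, a ubiquitin ligase, was the lowest at 0.75 and 1.29 TPM.

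In order of level, the axis ran Epor, Pim1, Stat5b, Stat5a, Cish, Jak2, Socs2, Socs3, Erfe and Epo. The ranges over the replicates separated Epor, Pim1 and Stat5b from each other and from the rest, and Erfe and Epo from all above them. Stat5a, Cish and Jak2 overlapped and did not differ beyond their spread, and neither did Socs2 and Socs3. With the lengths of the leading transcripts the order became Epor, Pim1, Stat5b, Jak2, Stat5a, Socs3, Cish, Socs2, Erfe and Epo by mean. The first 3 and the last 2 kept their places, and Jak2 and Stat5a overlapped, as did Socs3 and Cish.

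**Figure D4:**
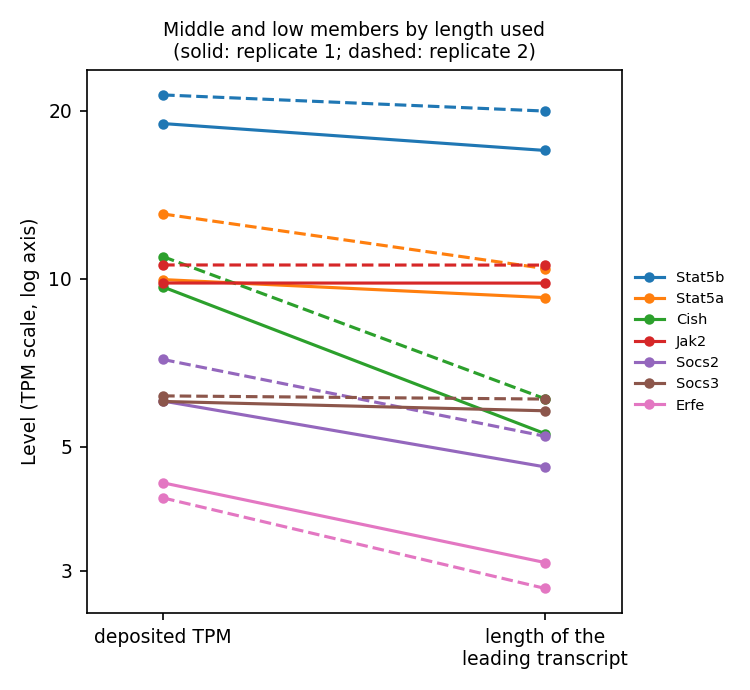
Levels of 7 genes of the axis on the TPM scale (log axis), as deposited (left) and from counts over the length of the leading transcript (right), with a solid line for replicate 1 and a dashed line for replicate 2. The lines of Cish drop to those of Socs3 (5.28 against 5.80 in replicate 1, and 6.09 for both in replicate 2), while Jak2 is nearly level.

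None of the 10 genes differed by more than 1.5-fold between the replicates, against 8.16% of the 15997 genes whose counts averaged 10 or more. With a share that low, 0 of 10 is no result about the axis. Among genes with similar counts, the share that differed more ran from 8.21% for Pim1 and 17.0% for Erfe to 92.0% for Stat5a. The log2 ratios of replicate 2 over replicate 1 ran from -0.31 to 0.20 after TMM scaling of the counts, which takes the bulk of genes as unchanged. The median size of these ratios was 0.08, beside 0.15 for all 15997 genes, which were not matched to the axis for counts. Reads carried no molecular identifiers in the tables, so the 95% binomial intervals given with these ratios cover counting error only. The interval excluded 0 for 4 of the 10, as it did for 38.8% of all genes.

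The 4 were Pim1, Erfe, Epor and Stat5b. Pim1 was lower in replicate 2, with a log2 ratio of -0.26 (interval -0.31 to -0.20). Erfe had -0.31 (-0.56 to -0.07) and Epor -0.17 (-0.21 to -0.12). Stat5b was slightly higher in replicate 2, at 0.08 (0.01 to 0.15). For Epo the interval was wide, from -0.73 to 1.14. These values compare 2 libraries of 1 group, and their size depended on the scaling. Pim1, Erfe and Epor were below 0 under every scaling run, though Epor had only -0.01 in TPM, whereas Stat5b turned to -0.56 with spike-in scaling. With scaling by the spike-in totals, all 10 genes had a negative ratio and 8 passed 1.5-fold, as did 60.3% of all genes, whose median moved to -0.64.

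**Figure D5:**
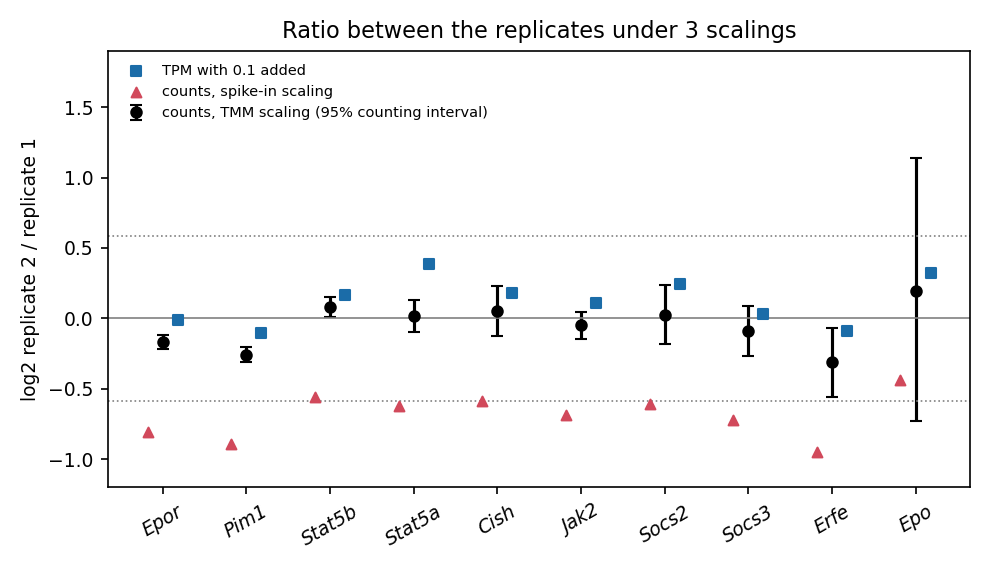
Log2 ratio of replicate 2 over replicate 1 for each gene of the axis, from counts with TMM scaling (black, with the 95% counting interval), from TPM (blue squares) and from counts scaled by spike-in totals (red triangles). Dotted lines mark 1.5-fold, which no black point reaches, whereas 8 red triangles lie beyond it.

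Marker genes were read beside these ratios, and their part in them was not tested. All 8 measured erythroid markers were expressed, with summed levels of 129476 and 114457 TPM, and 6 of the 8 had a ratio below 0, with a median log2 ratio of -0.10 after TMM scaling. The globins Hbb-bt and Hba-a1 had -0.34 and -0.28, the heme enzyme gene Alas2 -0.14 and the progenitor factor Tal1 -0.06. The 6 hepatoblast markers summed to 9489 and 11018 TPM, with a median ratio of -0.01, so both compartments that the label liver implies at this stage were present. On the same scale the 4 stem and progenitor markers all had a ratio above 0 (median 0.21), as had the 4 endothelial ones (0.22). The 4 megakaryocyte markers had a median of -0.12 (1 above 0 and 3 below), and the 4 macrophage markers -0.08 (1 above and 3 below). The 3 granulocyte markers had -0.30 (1 above and 2 below), and the 4 stellate and mesenchymal markers 0.04 (2 above and 2 below). Spike-in scaling lowers every such ratio by 0.64, which puts each of these medians below 0. The 4 heart muscle markers summed to 27.4 and 75.4 TPM, with all 4 past 1.5-fold and Actc1 the highest at 23.0 and 53.7 TPM. The libraries held 39644066 and 38150988 expected counts, of which spike-ins took 1.16% and 1.88%.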

How the data were processed

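Per the deposited readme, each table describes 1 library assigned to mm10 with GENCODE release M4. No source used here names the aligner, the quantification tool or the use of strand. Expected counts, which are estimated counts per gene or transcript, and TPM are the authors' values, per the file headers. TPM runs over genes, spike-ins (96) and tRNA entries (26248), and its effective length is the length less 99 nt. Posterior means, posterior SDs and interval bounds (level not stated) are likewise as deposited. The percent of a gene in each transcript was deposited by the authors, and it was recomputed here from TPM.

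Symbols came by gene ID from GENCODE M21 (42462 of 43346 genes). The 884 unnamed genes held 0.154% and 0.163% of gene counts, stayed in the totals and were never named. Ahsp had no entry under its symbol, and Hjv was matched through its synonym Hfe2. Coordinates are those of M21 on GRCm38. Replicate ratios used expected counts plus 0.5 with TMM factors (edgeR 4.0.16, R 4.3.3) or, as an alternative, DESeq2 1.42.0 size factors, both from rounded counts, for genes whose counts averaged 10 or more. Tested on simulated data (15997 genes), a true log2 change of 0.3 came out at 0.28, one of 0.6 at 0.59 and one of 1 at 0.99. The simulated counts held counting error only, so the test covers the calculation and not variation between samples. Other steps used Python 3.11.15 with pandas 2.3.3 and scipy 1.17.1.

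The genes, the 20 gene lists, the 14 pairs and the rule for named genes (all 10 axis genes, genes of the pairs, and the 3 highest and the lowest of each list) were chosen with earlier results of these data known. With 2 libraries of 1 group, no measure of likeness between gene patterns was possible. Proteins were not analysed here, and some genes that the rule would name are not reported here.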

Additional observations from a re-analysis of the deposited data

How the results depend on the processing

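Of 224 recomputed values, 171 were counted as within the spread or counting interval of the reported value, and the others are given here. The tally does not measure robustness, because many of the 171 could not move by construction. Those included each replicate alone, replicate ratios without a minimum count, and TPM ratios from counts per effective length. They also included the leading-transcript shares of Epor and Pim1, with 1 annotated transcript each. The number of genes past 1.5-fold could likewise not rise from 0 with a minimum mean count of 100. The numbers of genes at or above 1 TPM have no spread and were also counted among the 171. The planned protein comparison was not run. Counting depth limits genes with few counts, such as Epo, Hamp and Bmp6. Rescaled without globins, levels became 1.495 (Epo), 181 (Epor), 15.6 (Jak2), 17.6 (Stat5a), 30.8 (Stat5b), 15.8 (Cish), 10.1 (Socs2), 9.33 (Socs3), 88.1 (Pim1) and 6.395 TPM (Erfe), with the order kept by construction. Posterior mean TPM gave 116 (Epor), 7.47 (Socs2) and 6.43 (Socs3), and log2 ratios of 0.42 for Cish over Socs2, 0.63 for Cish over Socs3 and -0.53 for Stat5b over Stat3. The length of the leading transcript gave 18.5 (Stat5b), 5.69 (Cish), 4.91 (Socs2), 5.95 (Socs3) and 2.94 (Erfe), and log2 ratios of 0.21 for Cish over Socs2, -0.068 for Cish over Socs3 and -0.28 for Socs2 over Socs3 (the sign turned in the last 2). This alternative was chosen after seeing the data. A pseudocount of 0.1 TPM gave 1.05 for Jak2 over Tyk2. Replicate ratios scaled by spike-in totals were -0.80 (Epor), -0.69 (Jak2), -0.62 (Stat5a), -0.56 (Stat5b), -0.59 (Cish), -0.61 (Socs2), -0.72 (Socs3), -0.89 (Pim1) and -0.95 (Erfe), which turned the sign of Epo, Stat5a, Stat5b, Cish and Socs2 and put 8 past 1.5-fold. Total counts gave -0.10 (Epor) and -0.19 (Pim1). TPM with 0.1 added gave -0.011 (Epor), 0.11 (Jak2), 0.39 (Stat5a), 0.17 (Stat5b), 0.24 (Socs2) and -0.10 (Pim1). The leading transcript held 95.7% (Stat5b), 74.9% (Cish), 77.4% (Socs2), 99.5% (Socs3) and 87.6% (Erfe) of expected counts, and by posterior mean 62.5% (Epo), 89.6% (Jak2), 40.3% (Cish), 47.1% (Socs2) and 90.5% (Socs3). Why the other values moved was not tested. Each replicate alone stayed within the spread, which is so by construction for a mean of 2. The number of genes at or above 1 TPM was 9, and 10 in replicate 2 alone or at 0.5 TPM. No paired analysis was possible because there is 1 group.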
